A study of Mus musculus with 4 samples.

Results

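The transcripts of the m6A readers were followed in anti-YTHDF2 RNA immunoprecipitates (RIP) of the newborn mouse retina. These were the 8 genes whose symbol in the deposited count table was Ythdf1, Ythdf2, Ythdf3, Ythdc1, Ythdc2, Igf2bp1, Igf2bp2 or Igf2bp3, out of 52550 genes in the table. All 8 passed the filter on low counts, which left 13632 genes. Retinas of wild type C57BL/6 mice at postnatal day 0 (P0) were dissociated with papain. Each of 2 replicates gave an input library of RNA taken before the pulldown and a RIP library of RNA recovered with an antibody to YTHDF2, so that 4 libraries of 1 genotype, strain and age were compared, with no treatment. How many animals a replicate held is not given in the sources used here, and a pulldown with control IgG named in the methods was not analysed here. RIP against input therefore shows which transcripts made up more or less of the recovered RNA than of the starting RNA, with no measure of RNA that would come down without the antibody.

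N6-methyladenosine (m6A) is a methyl mark that the METTL3-METTL14 complex places on adenosines of mRNA within a short sequence context, often near stop codons and in 3′ UTRs. Reader proteins bind marked mRNA and set what becomes of it. The YTH family recognises the mark through its YTH domain, and the cytoplasmic YTHDF proteins are known for promoting decay and translation of marked mRNA, YTHDF2 by bringing in the CCR4-NOT deadenylase. YTHDC1 acts in the nucleus on splicing and export, YTHDC2 is an RNA helicase known from the germline, and the IGF2BP proteins are fetal RNA-binding proteins that stabilise their mRNAs. The question here was whether the mRNAs of the readers themselves were found in the YTHDF2 pulldown.

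All of these mRNAs held letters of the kind that carry m6A. The consensus, A, G or T, then A or G, then AC, then A, C or T, covers 18 five-letter forms, and the longest protein-coding transcripts of the 8 genes held from 61 matches in Ythdc1 to 172 in Igf2bp1. It was present in the longest annotated transcript, of any type, of 100% of tested protein-coding genes, so its presence set no reader apart. Its form GGACT occurred 10 times in Igf2bp1, all in the 3′ UTR, and 5 times in Ythdf2, with 3 of these within 400 bases of the end of the coding sequence. Ythdf1 and Ythdf3 held it 1 time each, and 93.9% of tested protein-coding genes held it at least once in their longest annotated transcript. For 7 of the genes 1 match is given, to show where such letters lie in each mRNA. It is printed as 25 bases of the GENCODE M21 transcript (GRCm38) with GGACT in capitals. Among matches whose 25 bases lie within 1 exon, it is the nearest to the end of the coding sequence. A match is a run of letters and not a measured m6A site.
Ythdf1: agtcccctgtGGACTacggcaccag
Ythdf2: aagaaaattaGGACTttttttctta
Ythdf3: aggcatgactGGACTgaaaattggt
Ythdc1: actgacggacGGACTcgtgcgcctg
Igf2bp1: tgtggtggtcGGACTacaacccaac
Igf2bp2: cttttcgactGGACTgtctgtgctt
Igf2bp3: tggaaacatcGGACTtccctttgcc

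The Ythdf2 window lay in the 3′ UTR, 80 bases after the end of the coding sequence, at chr4:132186832-132186856 on the minus strand. The Ythdf1 window, at chr2:180910958-180910982 on the minus strand, was coding and lay 310 bases before that end. In Ythdf3 the match was also coding, 1179 bases before the end, at chr3:16204257-16204281 on the plus strand. For Ythdc1 both matches were in the 5′ UTR, and the one shown lay 2274 bases before the end of the coding sequence, at chr5:86804464-86804488 on the plus strand. Igf2bp1 and Igf2bp3 had their windows in the 3′ UTR, 1209 bases after the end at chr11:95962279-95962303 and 1396 bases after it at chr6:49085934-49085958, and Igf2bp2 had a coding window 669 bases before the end at chr16:22076074-22076098, these 3 on the minus strand.

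The libraries held 19530226 to 39499994 counts. An overlapping pair of genes with ribosomal RNA sequence took 55.0% to 55.5% of the input counts and 85.3% to 87.8% of the RIP counts, and protein-coding genes kept 2083594 to 4175459 counts. Counts were therefore scaled by TMM, a method that takes the bulk of genes as unchanged, and levels are given as TMM-scaled CPM, the counts of a gene relative to the scaled size of its library. Over all tested genes the median log2 fold change of RIP over input was -0.05 with TMM and 0.27 with library size alone, so a fold change here is relative to the other transcripts. The RIP libraries resembled each other more than the inputs did, with a Pearson r of log2 CPM across tested genes of 0.941 against 0.878. Markers of retinal neurons and progenitors were present in every library, and Rpe65, Tyr, Cryaa and Mip, which mark pigment epithelium and lens, were at 0. In no library did the 6 pigment epithelium markers sum to more than 0.749 CPM, or the 6 lens markers to more than 0.570 CPM. The summed level of 8 retinal ganglion cell markers was 63.3 to 67.2 CPM in the inputs and 27.2 CPM in both RIP libraries, and 2 of the 8 fell at an adjusted p below 0.05 by edgeR, where 9.78% of all tested genes did. Progenitor markers summed to 673 to 1012 CPM in the inputs and 595 to 628 CPM in RIP, with 3 of 7 falling, and amacrine and horizontal cell markers to 70.3 to 114 and 49.1 to 55.2 CPM, with 1 of 6 falling. The sums of photoreceptor precursor markers (128 to 150 CPM in the inputs, 182 to 188 CPM in RIP) and of vascular endothelium markers (32.2 to 33.3 and 65.3 to 67.2 CPM) lay higher in RIP, and none of those tested passed. Their part in the values of the readers was not tested.

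None of the 8 reader mRNAs passed an adjusted p of 0.05 in either direction by edgeR's quasi-likelihood test, a threshold that 3.48% of all tested genes passed upward and 9.78% downward. DESeq2 also called none, where it called 3.02% of genes with at least 1 count upward and 6.3% downward. At an unadjusted p below 0.05 each tool passed 2 of 8 readers, beside 29.7% of all genes by the quasi-likelihood test and 16.3% by DESeq2. By looser limits, a log2 fold change of 1 with an unadjusted p below 0.05, no reader was enriched and 2 were depleted, Ythdc1 and Igf2bp2. The background for these limits was 9.43% enriched and 17.2% depleted. Neither call of depletion held with library size alone (background 12.7% depleted) or with TMM factors taken without rRNA, small RNA and mitochondrial genes (15.9%). Neither held with limma on log2(FPKM + 0.1) (14.8%) or log2(FPKM + 1) (7.28%). On the latter scale Ythdc1 could not reach these limits, since its inputs, at 0.230 and 0.713, both lay under 1 FPKM. The added 1 FPKM also shrinks the change of Igf2bp2 there. With no filter on low counts Ythdc1 alone held, at -1.32 (10.1%). Leaving out RIP 1 or RIP 2 ended both calls of depletion, with log2 fold changes of -1.60 and -1.08 for Ythdc1 and -1.27 and -0.63 for Igf2bp2, leaving out input 1 ended that of Igf2bp2 (-0.77), and leaving out input 2 ended that of Ythdc1 (-0.49). These fits called 10.5%, 10.8%, 17.3% and 18.7% of all genes depleted. Without input 2, Ythdf2 and Ythdf3 were enriched at these limits, where 15% of all genes were. The median log2 fold change of the readers was 0.25, beside -0.05 for all tested genes. Both RIP libraries lay above both inputs for 3 readers, Ythdf1, Ythdc2 and Igf2bp1, where 29.6% of all tested genes did so, and below them for 2, where 31.3% did.

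**Figure D1:**
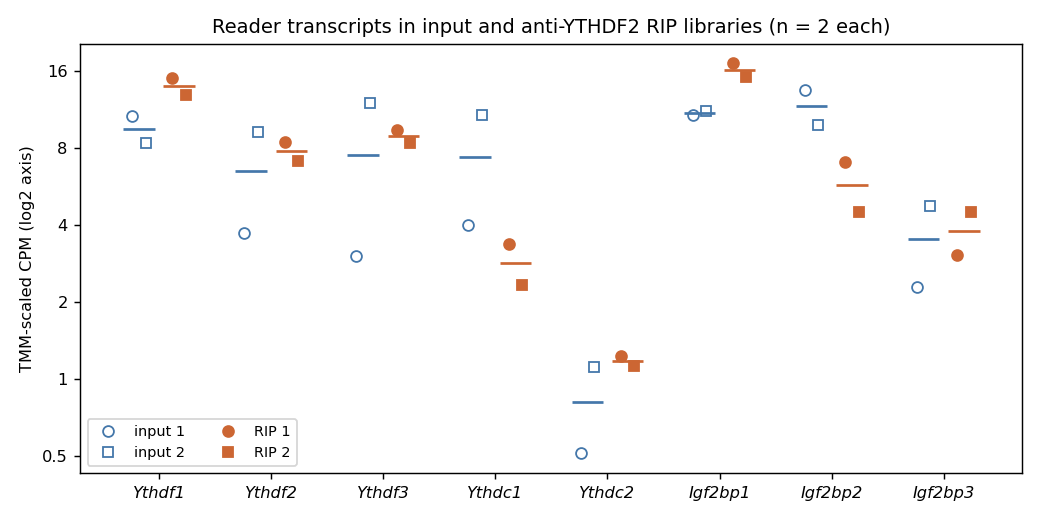
TMM-scaled CPM (log2 axis) of the 8 reader transcripts in input 1 and 2 (open blue) and RIP 1 and 2 (filled orange), with the mean of each pair as a line. The inputs of Ythdf2, Ythdf3 and Ythdc1 lie far apart, while the RIP libraries of Ythdf2 and Ythdf3 lie close together. Both RIP points of Igf2bp2 lie below both inputs.

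Ythdf2 encodes the protein that was pulled down. Its mRNA gave 124 and 317 counts in input 1 and 2 and 212 and 171 counts in RIP 1 and 2, which is 3.72 and 9.23 CPM in the inputs and 8.40 and 7.10 CPM in the RIP libraries. Both RIP libraries thus lay between the inputs. The log2 fold change was 0.26 ± 0.465 (SE, n = 2 per group), with a 95% interval from -0.80 to 1.32 (edgeR quasi-likelihood test, adjusted p = 0.755). Within replicates the log2 ratio of RIP to input was 1.15 in replicate 1 and -0.37 in replicate 2. The direction depended on which input was used. Without input 1 the log2 fold change was -0.25 (adjusted p = 0.421), and without input 2 it was 1.05 (adjusted p = 0.0059, edgeR), in a fit where 18.2% of all genes were called upward and where the remaining input is assumed to vary like the RIP libraries. The gene lies on chromosome 4 (GRCm38, chr4:132184912-132212303, minus strand). Its processed pseudogenes Gm6823 and Gm8401 on chromosome X match the transcript at 95.2% over 1840 bases and 96.3% over 1740 bases, and each had at most 1 count in any library.

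Ythdf3 encodes the paralog that acts with the other YTHDF proteins, and it showed the widest gap between inputs among the readers. Between such bulk samples fewer cells of a type and less RNA per cell cannot be told apart. Differences between the inputs also ran with GC content across genes, as given below. The cause of this gap was not tested. Input 1 held 101 counts (3.03 CPM) and input 2 held 412 counts (11.999 CPM). With 0.1 CPM added to both, this was a 3.87-fold difference, larger than that of 95.3% of tested protein-coding genes. RIP 1 and 2 held 238 and 201 counts, or 9.43 and 8.35 CPM, again between the inputs. The log2 fold change was 0.24 ± 0.570 (SE, n = 2 per group), with a 95% interval from -1.06 to 1.54 (edgeR, adjusted p = 0.819). As for Ythdf2, the sign followed the input, at 1.61 in replicate 1 and -0.52 in replicate 2. The model gave -0.43 without input 1 and 1.55 without input 2.

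Ythdf1, whose protein is best known for promoting translation of marked mRNA, had the smallest gap between inputs of its family. It gave 355 and 287 counts in the inputs (10.6 and 8.36 CPM) and 380 and 311 in the RIP libraries (15.1 and 12.9 CPM). Both RIP libraries were above both inputs, with log2 ratios of 0.50 and 0.62 in replicates 1 and 2. The model gave 0.56 ± 0.339 (SE, n = 2 per group), with a 95% interval from -0.21 to 1.33 (edgeR, adjusted p = 0.307). Without input 1 the log2 fold change was 0.74 with an adjusted p of 0.0157 (edgeR), in a fit that called 16.7% of all genes upward, and without input 2 it was 0.39 with an adjusted p of 0.158 (edgeR).

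Within each library, the counts of the YTHDF genes can be compared with no scaling between libraries. Ythdf1 made up 61.2% of the YTHDF counts in input 1 (95% Wilson interval 57.2% to 65.1%) and 28.2% in input 2 (25.6% to 31.1%). In RIP 1 and 2 its share was 45.8% (42.4% to 49.2%) and 45.5% (41.8% to 49.3%). These intervals cover counting error only. The RIP libraries thus held nearly the same mixture of the 3 mRNAs, and the inputs differed from each other by more than either differed from the RIP libraries. The log2 ratio of Ythdf1 to Ythdf2 was 1.52 and -0.14 in the inputs against 0.84 and 0.86 in the RIP libraries. Its mean was 0.17 higher in RIP (exact permutation test, two-sided, p = 1). For Ythdf1 over Ythdf3 and Ythdf2 over Ythdf3 the differences were 0.0064 and -0.16, also with overlapping groups and an exact permutation p of 1.

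**Figure D2:**
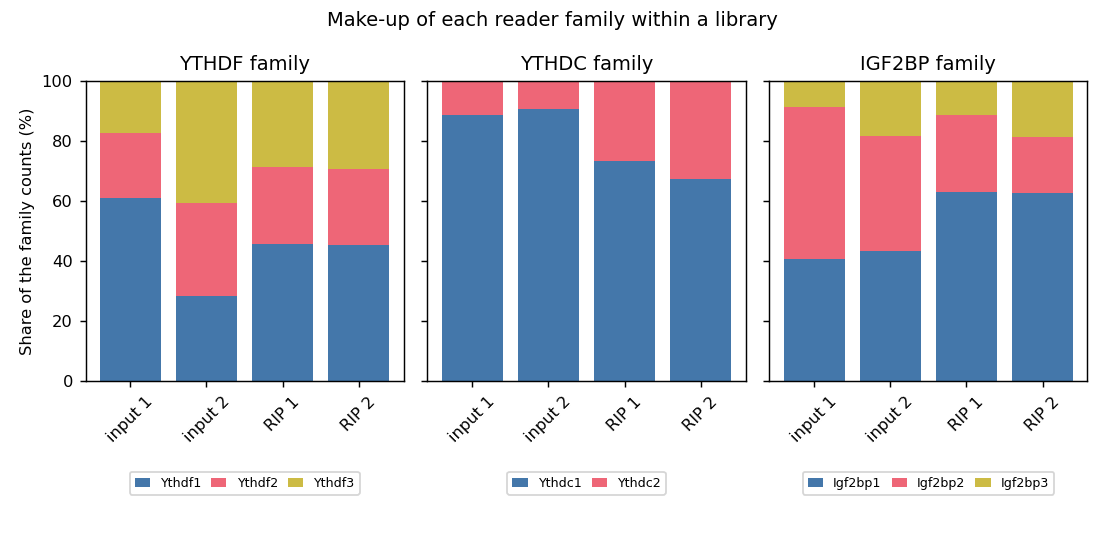
Share (%) of the counts of each reader family taken by its members in input 1 and 2 and RIP 1 and 2. The RIP libraries have Igf2bp1 at 63.0% and 62.8% of the IGF2BP counts against 40.7% and 43.3% in the inputs, and the YTHDF shares of the inputs bracket those of the RIP libraries.

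Ythdc1 encodes the nuclear reader, and its mRNA had the lowest fold change of the 8. Its counts were 133 and 370 in the inputs (3.99 and 10.8 CPM) and 85 and 56 in the RIP libraries (3.37 and 2.33 CPM). Both RIP libraries lay below both inputs, though RIP 1 and input 1 lay close together, with log2 ratios of -0.24 in replicate 1 and -2.16 in replicate 2. In the deposited FPKM the groups overlapped, at 0.230 and 0.713 in the inputs against 0.284 and 0.144 in RIP. The model gave -1.37 ± 0.525 (SE, n = 2 per group), with a 95% interval from -2.57 to -0.18, unadjusted p = 0.0290 and adjusted p = 0.122 (edgeR). Input 2 carried most of the difference. Without it the log2 fold change was -0.49, and without input 1 it was -1.92 with an adjusted p of 0.000123 (edgeR), in a fit that called 18.2% of all genes downward. The lincRNA Gm43055 on the same strand shares 631 exon bases with Ythdc1 and had 0 counts in every library.

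Ythdc2 had the fewest counts, 17 and 38 in the inputs against 31 and 27 in the RIP libraries. Its levels were 0.510 and 1.11 CPM in the inputs and 1.23 and 1.12 CPM in the RIP libraries, so that input 2 and RIP 2 differed by 0.02 on the log2 scale. The log2 fold change was 0.54 ± 0.612 (SE, n = 2 per group), with a 95% interval from -0.86 to 1.93 (edgeR, adjusted p = 0.605). It was 0.086 without input 1, 1.19 without input 2 and 0.12 with GC and length offsets, with no adjusted p below 0.05 in any of these fits. Of the YTHDC counts, Ythdc1 took 88.7% and 90.7% in the inputs against 73.3% and 67.5% in the RIP libraries. The ratio of Ythdc1 to Ythdc2 was 7.82 and 9.74 in the inputs against 2.74 and 2.07 in the RIP libraries, with no overlap. RIP minus input was -1.87 on the log2 scale, at -1.51 in replicate 1 and -2.23 in replicate 2 (exact permutation test, two-sided, p = 0.333, the smallest that 2 against 2 libraries can give).

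Igf2bp1 and Igf2bp2 differed in direction, neither with an adjusted p below 0.05. Igf2bp1, the family member known as the zipcode-binding protein of beta-actin mRNA, gave 360 and 382 counts in the inputs (10.8 and 11.1 CPM) and 432 and 364 in the RIP libraries (17.1 and 15.1 CPM). Its inputs were the most alike of the 8 genes, and both RIP libraries lay above them. The log2 fold change was 0.56 ± 0.325 (SE, n = 2 per group), with a 95% interval from -0.18 to 1.30 (edgeR, adjusted p = 0.288). It was 0.57 without input 2 and 0.53 without input 1. Igf2bp2, a paralog known for its part in metabolism, gave 449 and 338 counts in the inputs (13.5 and 9.84 CPM) and 177 and 108 in the RIP libraries (7.01 and 4.49 CPM). Both of its RIP libraries lay below both inputs, with similar log2 ratios in the replicates, -0.93 and -1.12. For Igf2bp2 the model gave -1.02 ± 0.386 (SE, n = 2 per group), with a 95% interval from -1.90 to -0.14, unadjusted p = 0.0281 and adjusted p = 0.119 (edgeR). Leaving out an input brought Igf2bp2 past the threshold, at -0.77 without input 1 (adjusted p = 0.0379, edgeR) and -1.23 without input 2 (adjusted p = 0.0019, edgeR), where 18.2% and 19.8% of all genes were called downward.

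The ratio of Igf2bp1 to Igf2bp2 was 0.802 and 1.13 in the inputs against 2.44 and 3.37 in the RIP libraries. The RIP libraries were above the inputs by 1.59 on the log2 scale, or 3.01-fold, and the replicates taken alone gave 1.61 and 1.58. Leaving out each library in turn gave 1.34 to 1.84. The deposited FPKM values gave 1.62, which is no separate check, since gene length and library size cancel in this difference. With the GC and length trends described below taken out, Igf2bp1 was at -0.35 and Igf2bp2 at -1.62. The exact permutation test (two-sided) gave p = 0.333, again the smallest possible here, and adjustment over the 7 pairs within families gave 1. This was the difference between paralogs that varied least between replicates relative to its size.

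Igf2bp3, the remaining IGF2BP reader, gave 76 and 163 counts in the inputs (2.28 and 4.75 CPM) and 77 and 108 in the RIP libraries (3.05 and 4.49 CPM), with overlapping groups. The log2 fold change was 0.10 ± 0.469 (SE, n = 2 per group), with a 95% interval from -0.97 to 1.17 (edgeR, adjusted p = 0.908). It was -0.33 without input 1 and -0.14 without RIP 2. Its exons overlap those of Malsu1 on the opposite strand over 1529 bases. The kit kept strand, but the strand setting of the counting is not given in the sources used here, so reads of the pair may not have been told apart. Malsu1 had 55 and 117 input counts and 7 and 36 RIP counts. The ratios of Igf2bp1 and of Igf2bp2 to Igf2bp3 overlapped between groups, with differences of 0.38 and -1.21 on the log2 scale (exact permutation test, two-sided, p = 0.667 for each).

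**Figure D3:**
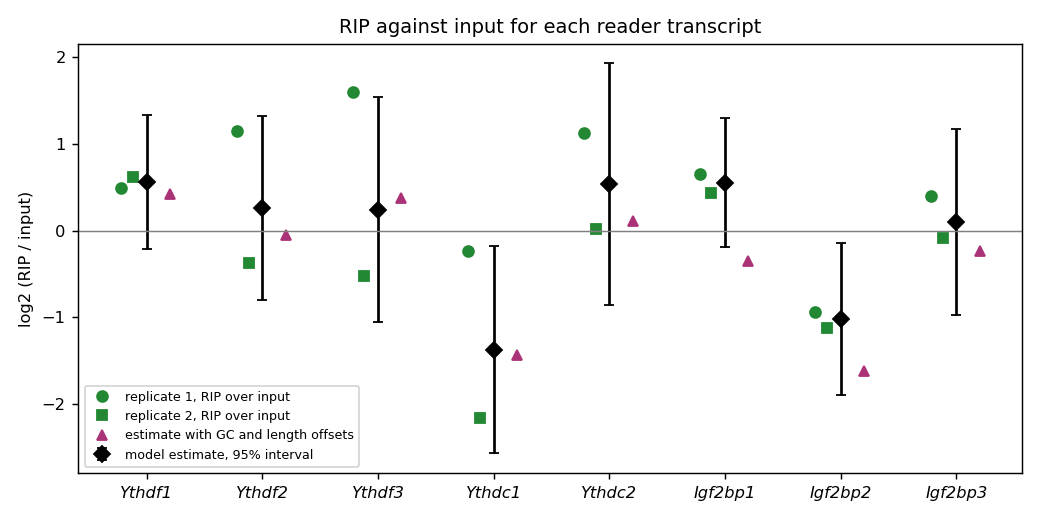
The log2 ratio of RIP to input for each reader, as the edgeR estimate with its 95% interval (black), the ratio within replicate 1 and 2 (green circle and square) and the estimate after trends on GC content and transcript length were taken out (purple triangle). The interval lies below 0 for Ythdc1 and Igf2bp2 and spans 0 for the other 6, and the replicates of Ythdf2, Ythdf3 and Igf2bp3 have opposite signs.

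The gap between inputs followed the base composition of the readers. Ythdf3, Ythdc2, Ythdc1, Igf2bp3 and Ythdf2, with 38.4%, 42.0%, 44.8%, 45.7% and 46.1% GC in the longest protein-coding transcript, were all higher in input 2, by 0.99 to 1.95 on the log2 scale. Ythdf1, Igf2bp1 and Igf2bp2, with 49.1%, 50.8% and 51.3% GC, differed by -0.34, 0.04 and -0.45. Across 11953 tested protein-coding genes the same measure had a Spearman correlation of -0.602 with GC content, and the difference between the RIP libraries had one of 0.012. These correlations are across genes of the same libraries, and genes are not independent replicates. With genes split into 5 groups by GC content, the median log2 ratio of input 2 to input 1 was 1.06 in the lowest and -0.55 in the highest. The fold change of RIP over input ran with transcript length, with a Spearman correlation of 0.487 and medians from -1.005 in the shortest of 5 equal groups of genes to 0.52 in the longest. Igf2bp1, with 8378 bases, was longer than 94.4% of the tested protein-coding genes, while Igf2bp2 had 3899 bases and Ythdc1 had 3269.

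**Figure D4:**
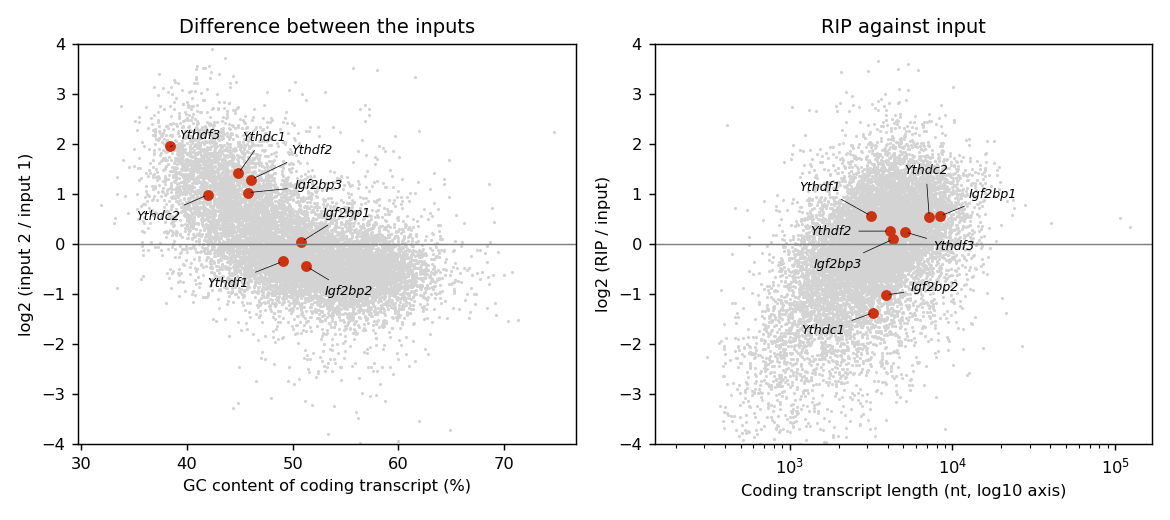
Left, log2 ratio of input 2 to input 1 against GC content (%) of the longest protein-coding transcript; right, log2 ratio of RIP to input against its length (nt, log10 axis), for 11953 tested protein-coding genes (grey) and the 8 readers (red). Between -4 and 4 the axes leave out 9 and 89 genes; the 5 readers with the lowest GC content lie well above 0 on the left.

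With smooth trends on GC content and length of the longest annotated transcript taken out, Ythdc1 and Igf2bp2 fell at an adjusted p below 0.05 by edgeR's quasi-likelihood test, where 10.2% of all genes did. Ythdc1 was at -1.43 (adjusted p = 0.0233, edgeR) and Igf2bp2 at -1.62 (adjusted p = 0.0168, edgeR). With the replicate number as a block in the same fit they were at -1.46 (adjusted p = 0.0454, edgeR) and -1.64 (adjusted p = 0.0251, edgeR), where 6.21% of all genes were called downward. Igf2bp1 turned to -0.35, so that its value above 0 did not hold under this fit. The longest annotated transcript of Ythdc1, a retained intron form of 6313 bases with 37.6% GC, differs much from its coding transcript. With the coding transcript in the trends Igf2bp2 was at -1.49 (adjusted p = 0.0171, edgeR) and Ythdc1 was at -1.42 (adjusted p = 0.0540, edgeR) and no longer passed. With the block, too, Igf2bp2 passed and Ythdc1 did not (background 10.2% without the block and 8.79% with it). What part GC content and length had in the fold changes was not tested.

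Levels of different readers were compared per length, by the deposited FPKM. By FPKM, Ythdf1 was highest in the inputs, at 2.43 ± 0.208 FPKM (SD, n = 2). Igf2bp2 followed at 1.38 ± 0.189, then Ythdf2 and Ythdf3 at 1.24 ± 0.837 and 1.24 ± 1.12, and Igf2bp1 at 0.966 ± 0.108. Ythdc1 at 0.471 ± 0.341, Igf2bp3 at 0.373 ± 0.214 and Ythdc2 at 0.0761 ± 0.0467 were lowest. Of the neighbours in this order, Ythdf1 and Igf2bp2, Igf2bp1 and Ythdc1, and Igf2bp3 and Ythdc2 had ranges that did not overlap, and the others overlapped. In the RIP libraries Ythdf1 was again first at 4.42 ± 1.36 FPKM, and Ythdf2, Igf2bp1 and Ythdf3 had overlapping levels at 1.77 ± 0.563, 1.74 ± 0.502 and 1.72 ± 0.495. Igf2bp2 came next at 0.844 ± 0.434, with a range below that of Ythdf3. The FPKM values were scaled to about the union of all annotated exons, which for Ythdc1 is 13651 bases, and per kilobase of coding transcript Ythdc1 ranked 3 of 8 in the inputs. On that scale Ythdf1 and Igf2bp2 overlapped, with input means of 2.98 and 2.99 CPM per kilobase.

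Among the other parts of the m6A pathway, 1 of the 2 erasers, which remove the mark, rose. At the same adjusted p below 0.05, 3.48% of all tested genes rose and 9.78% fell. Alkbh5 had 14.6 and 10.7 CPM in the inputs and 53.7 and 51.0 CPM in the RIP libraries and rose by 2.05 ± 0.354 on the log2 scale (SE, n = 2 per group, edgeR, adjusted p = 0.00817). Fto, the other eraser, was at 0.12. None of 9 writer genes passed an adjusted p of 0.05, and their median was 0.44. At the looser limits 1 writer of 9 was enriched and 2 were depleted, beside 9.43% and 17.2% of all tested genes.

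Of 12 other proposed readers, 1 rose and 1 fell, beside 3.48% and 9.78% of all tested genes. Lrpprc, a mitochondrial RNA-binding protein, had 198 and 194 counts in the RIP libraries against 25 and 76 before the pulldown, a log2 fold change of 2.42 ± 0.532 (SE, n = 2 per group, edgeR, adjusted p = 0.0215). Hnrnpa2b1, a nuclear RNA-binding protein, fell by 2.02 on the log2 scale, from 106 and 234 CPM in the inputs to 45.8 and 38.1 CPM (edgeR, adjusted p = 0.0220). The median of the list was -0.26.

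Of 12 genes of the decay machinery that YTHDF2 works with, 1 fell, beside 9.78% of all tested genes. Rida, which encodes the protein that links YTHDF2 to RNase P/MRP, had 30 and 63 counts in the inputs and 0 in both RIP libraries. Against a floor of 3 counts per library its level was at least 11.2-fold lower in RIP (edgeR, adjusted p = 0.00982). The median of this list was -0.38, and Cnot1, the scaffold of the CCR4-NOT complex, was at 1.13 with an adjusted p of 0.0632 (edgeR; named after its value was seen). None of 6 tested partners of YTHDC1 and YTHDC2 passed, with a median of -0.31, and Meioc and Rbm46 were too low to test.

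For the IGF2BP proteins, 1 of 9 partners fell, beside 9.78% of all tested genes. This was Ybx1, which encodes a cold shock RNA-binding protein. It had 420 and 213 CPM in the inputs and 20.4 CPM in both RIP libraries, a log2 fold change of -3.95 ± 0.457 (SE, n = 2 per group, edgeR, adjusted p = 0.00162). Of 8 known IGF2BP target RNAs and oncofetal genes, 2 fell (9.78% of all tested genes) and none rose (3.48%), with a median of -1.25. These were Igf2, the growth factor for which the family is named, at -2.01 (edgeR, adjusted p = 0.00758) and Actb, beta-actin, at -2.37 (edgeR, adjusted p = 0.00909). At the looser limits 5 of these 8 were depleted, where 17.2% of all tested genes were. Without RIP 1 and without RIP 2, the log2 fold changes of the 7 genes named as rising or falling in these lists kept their sign. Ybx1 alone also passed there. With 1 RIP library left, those fits called far fewer of all tested genes than the main fit, so the loss of a call was not particular to the other 6. With no filter on low counts, Lrpprc and Hnrnpa2b1 did not pass either, at adjusted p of 0.0553 and 0.0584 (edgeR).

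The transcripts whose pattern over the 4 libraries was nearest to that of Ythdf2 were N4bp2, Rfx3 and Stox2, at distances of 0.0247, 0.0743 and 0.0908 between log2 CPM values centred on each gene, among 5013 genes with a mean of at least 5 CPM. The nearest to Ythdf1 was Tbx2 (0.0390), to Ythdf3 Nin (0.0718), to Ythdc1 Kmt2e (0.159), to Igf2bp1 Hkdc1 (0.0469) and to Igf2bp2 Trp53 (0.102). With 4 libraries such nearness is a description of these values alone.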

How the data were processed

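The authors deposited whole-number counts per gene, not normalized, and FPKM values, which they scaled by library size and gene length. The submitters' processing notes name STAR 2.5, HTSeq and GRCm38; the settings are not given in the sources used here. TruSeq Stranded libraries were made from 100 ng of RNA. Counts were filtered (filterByExpr, minimum count 10, minimum total 15), scaled by TMM and tested in R 4.3.3 with edgeR 4.0.16 (glmQLFit, glmQLFTest), with Benjamini-Hochberg adjustment over all 13632 tested genes. On simulated data, 46% of 200 changed genes among 13309 were called at an adjusted p below 0.05. For single genes, log2 ratios of RIP to input within a replicate, and between libraries of the same kind, were taken after 0.1 CPM was added to each level. Gene models came from GENCODE M21.

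The series design gives each replicate an input and a RIP library, so equal numbers mark a shared replicate; deviations of same-numbered libraries had a Pearson correlation of -0.0282 across genes. The main model had no block. Alternatives were DESeq2 1.42.0, other scalings and filters, the exact test, the block, limma 3.58.1 on log2(FPKM + 0.1) and log2(FPKM + 1), GC and length offsets (mgcv 1.9.3) and each library left out. Offsets and levels from coding transcripts were added after the data were seen. Members and lists were chosen with earlier results of these data known. Named are the members, list genes with an adjusted p below 0.05 and the nearest patterns.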

Additional observations from a re-analysis of the deposited data

How the results depend on the processing

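With 2 libraries per group, the inputs limit what can be said of Ythdf2, Ythdf3 and Ythdc1. Leaving out each library gave log2 fold changes of -0.25 to 1.05 for Ythdf2, -0.43 to 1.55 for Ythdf3 and -0.33 to 0.72 for Igf2bp3. At an adjusted p below 0.05 it gave 0 to 3 readers higher (3 without input 2, where 18.2% of all genes were) and 0 to 2 lower in RIP (2 without input 1, where 18.2% were). At a log2 fold change of 1 with an unadjusted p below 0.05 it gave 0 to 2 higher (2 without input 2, background 15%) and 0 to 1 lower (1 without input 1 and 1 without input 2, background 17.3% and 18.7%). With GC and length offsets 2 readers were lower at the adjusted threshold, without and with the replicate block, and with offsets from coding transcripts 1 was, Igf2bp2, again without and with the block. These offsets turned Ythdf2 to -0.043 (0.042 with the block, and -0.082 and -0.0079 from coding transcripts), Igf2bp1 to -0.35 (-0.35 with the block, and -0.36 and -0.36 from coding transcripts) and Igf2bp3 to -0.23 (-0.22 with the block, and -0.27 and -0.26 from coding transcripts). They also moved the median of all tested genes from -0.05 to -0.17 (-0.16 with the block, and -0.17 and -0.17 from coding transcripts). The readers depleted at the looser limits numbered 0 with library size alone, with TMM without rRNA, small RNA and mitochondrial genes and with limma on log2(FPKM + 0.1) or log2(FPKM + 1), and 1 with no filter on low counts. On log2(FPKM + 1) Ythdc1 could not have passed, since both of its inputs lay under 1 FPKM. Per kilobase of coding transcript, 5 of the 8 kept their rank. The offsets would also take out any real difference that runs with GC content or length. The cause of these changes between fits was not tested. Without offsets, the replicate block changed no call on the readers and gave Ythdf2 a log2 fold change of 0.39. Ythdf1 over Ythdf2 differed by -0.68 and 1.01 in replicate pairs 1 and 2, and Ythdc1 over Ythdc2 by -1.51 and -2.23.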
